A study of Homo sapiens with 6 samples.

Results

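The immediate early genes FOS, FOSB, FOSL2, JUN, JUNB, JUND, EGR1, NR4A1, ARC and SIK1 were followed after knockdown of CAMKV in NGP cells, a human neuroblastoma line. They were chosen by gene symbol, and all 10 were found among the 19868 entries of the deposited gene count table, each at a locus identifier that no other symbol shared. CAMKV-KD comprised 3 libraries, described as sh-CAMKV, and was compared with Control, 3 libraries described as sh-control. All cells grew in RPMI-1640 with 20% fetal bovine serum, and the labels name no stimulus, so the values are read as levels in growing cells. Whether serum or handling had activated these genes was not tested. CAMKV encodes a kinase-like protein without an active catalytic site that binds calmodulin. Neither the origin of each library from its own culture nor the number of hairpins is stated, so the p-values below rest on spread among libraries that may be technical replicates.

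Immediate early genes are transcribed within minutes of a stimulus, from proteins already present in the cell, when growth factors, calcium entry or cyclic AMP activate kinases. Much of that signal ends on SRF with its ternary complex partners at the CArG box, and on CREB at the cyclic AMP response element (CRE). In neurons their mRNAs are used as marks of recent activity. FOS, FOSB and FOSL2 proteins pair with JUN, JUNB and JUND proteins to form the transcription factor AP-1. EGR1 is a zinc finger factor and NR4A1 an orphan nuclear receptor, while ARC, a synaptic protein that drives removal of AMPA receptors, and SIK1, a kinase that restrains CREB coactivators, act outside direct control of DNA.

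The stretches before the start sites of 4 of these genes are shown. Each carries CRE letters, and EGR1 also the CArG box, through which this class of genes is known to be switched on. FOSB and JUND, which were not called, carry CRE letters as well and are not shown. EGR1 was higher in CAMKV-KD, SIK1 and FOSL2 were lower, and FOS was not called. Each line gives the 250 bases before the RefSeq start, 5′ to 3′ on the gene's own strand, from GRCh38.p14. The GENCODE 29 spans given below begin further upstream for FOS, SIK1 and FOSL2. Part of the FOS and SIK1 stretches and the whole FOSL2 stretch therefore lie inside those spans. Capitals mark the CArG box and every match, on either strand, to the CRE core TGACGT or to the EGR1 site GCGGGGGCG.
EGR1, chr5:138465229-138465478, plus strand: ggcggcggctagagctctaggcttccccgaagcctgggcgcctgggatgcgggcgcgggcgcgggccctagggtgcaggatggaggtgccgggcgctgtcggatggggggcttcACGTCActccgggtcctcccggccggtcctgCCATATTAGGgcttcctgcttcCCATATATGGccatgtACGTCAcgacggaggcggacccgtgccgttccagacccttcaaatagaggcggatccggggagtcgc
FOS, chr14:75278578-75278827, plus strand: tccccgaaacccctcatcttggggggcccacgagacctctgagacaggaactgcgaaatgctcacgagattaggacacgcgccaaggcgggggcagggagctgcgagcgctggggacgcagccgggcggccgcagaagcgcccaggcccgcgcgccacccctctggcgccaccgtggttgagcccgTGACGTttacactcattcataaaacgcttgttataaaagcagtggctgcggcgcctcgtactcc
SIK1, chr21:43427132-43427381, minus strand: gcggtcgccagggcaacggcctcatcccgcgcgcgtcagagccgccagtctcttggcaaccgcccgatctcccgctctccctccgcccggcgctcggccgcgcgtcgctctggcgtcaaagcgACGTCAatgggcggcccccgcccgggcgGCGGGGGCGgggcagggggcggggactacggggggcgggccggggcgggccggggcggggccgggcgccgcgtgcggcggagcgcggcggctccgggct
FOSL2, chr2:28392608-28392857, plus strand: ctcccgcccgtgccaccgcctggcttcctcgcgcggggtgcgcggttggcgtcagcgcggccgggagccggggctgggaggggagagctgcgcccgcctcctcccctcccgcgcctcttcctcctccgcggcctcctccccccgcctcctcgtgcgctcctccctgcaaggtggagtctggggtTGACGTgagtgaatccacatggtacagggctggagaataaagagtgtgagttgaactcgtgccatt

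EGR1 was the only one of the 9 members with a RefSeq window that held the CArG box, and it held 2 of them, CCATATTAGG and CCATATATGG. The search covered 300 bases, from 250 before to 50 after the start, so a CArG box or other site further out would be missed. Of all 35116 such windows, 1.29% held a CArG box. The CRE core stood in the windows of 6 members, FOS, FOSB, FOSL2, JUND, EGR1 and SIK1, and in 7.98% of all windows. JUND alone held the full CRE, TGACGTCA, which overlaps 2 matches to the core and stood in 1.85% of all windows. FOSL2 alone held the AP-1 site (TGAGTCA or TGACTCA), 5 bases after its RefSeq start, a site found in 4.95% of all windows. SIK1 alone held the EGR1 site, found in 5.07%. JUN, JUNB and both NR4A1 windows held none of these letters. The JUN window and the later NR4A1 window lie wholly inside the GENCODE 29 spans of their genes, so sequence upstream of those spans was not searched there. The CRE core thus stood beside members that were higher, lower and not called, and a match is a run of letters and not a measured binding site.

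Total counts ran from 20238281 to 24701564 per library, and 3 counts in a library, the floor for detection, amounted to 0.121 to 0.148 CPM (counts scaled by library size). CAMKV itself was at 25.4, 23.2 and 25.4 CPM in the CAMKV-KD libraries, against 83.9, 77.3 and 84.6 CPM in the Control libraries, in the direction that the labels give (log2 fold change −1.73 ± 0.065, SE; adjusted p = 0.000119, edgeR). Of the adrenergic neuroblastoma markers, all 12 passed the filter on low counts, with 1 higher and 4 lower in CAMKV-KD. The share called was 41.7%, against 36.3% of all tested genes. TH was higher, while PHOX2A and ISL1 were among those lower. Of Schwann and glial markers, SOX10 had no count in any library, and the 6 genes summed to 1.58 to 2.03 CPM in CAMKV-KD and 2.64 to 3.76 CPM in Control libraries. The 7 blood and endothelial markers summed to 0.535 to 1.02 CPM in CAMKV-KD and 0.578 to 0.628 CPM in Control, and CD3E and HBB had no count. The 5 epithelial markers summed to 0.929 to 3.66 CPM in CAMKV-KD and 1.49 to 2.34 CPM in Control. Of the fibroblast and stromal markers POSTN had no count, but COL1A1, LUM and PDGFRB were counted in every library, and the 7 genes summed to 365.4 to 381.7 CPM in CAMKV-KD and 294.1 to 315.5 CPM in Control. Of the 6 tested, COL1A1, LUM and THY1 were higher and PDGFRB lower in CAMKV-KD (66.7% called, against 36.3% of all tested genes). The call of THY1 was lost in 5 of 6 fits without a library. COL1A2 and DCN were tested and not called, and the median log2 fold change of the list was −0.15. Whether stromal cells were present was not tested, nor was the part of these markers in the results below.

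The 10 genes did not move as a block. JUN, JUNB and EGR1 were higher in CAMKV-KD, FOSL2, ARC and SIK1 were lower, and FOS, FOSB, JUND and NR4A1 did not pass the test. The test was edgeR's quasi-likelihood F-test on 13361 genes with Benjamini-Hochberg adjustment, and a gene was called at an adjusted p below 0.05. All 10 passed the filter on low counts, and 6 of them (60%) were called, where 36.3% of all tested genes were. By direction, 3 were higher, where 17.3% of all tested genes were, and 3 were lower, where 19.0% were. The balance over all genes depends on scaling: 47.7% of called genes were higher with TMM and 56.4% with library totals, while the calls of the 10 genes were the same. The same 6 genes had no overlap between groups, as did 52.8% of all tested genes (26.2% with CAMKV-KD higher and 26.6% with CAMKV-KD lower). The median log2 fold change was 0.36 over the 10 genes and 0.0045 over all tested genes. The former lies between the values of FOS and JUND, neither of them called. It ran from 0.25 (without CAMKV-KD 3) to 0.47 (without Control 1) in fits without a library. RNA was taken from whole cultures, so fewer cells with an mRNA and less of it per cell cannot be told apart.

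**Figure D1:**
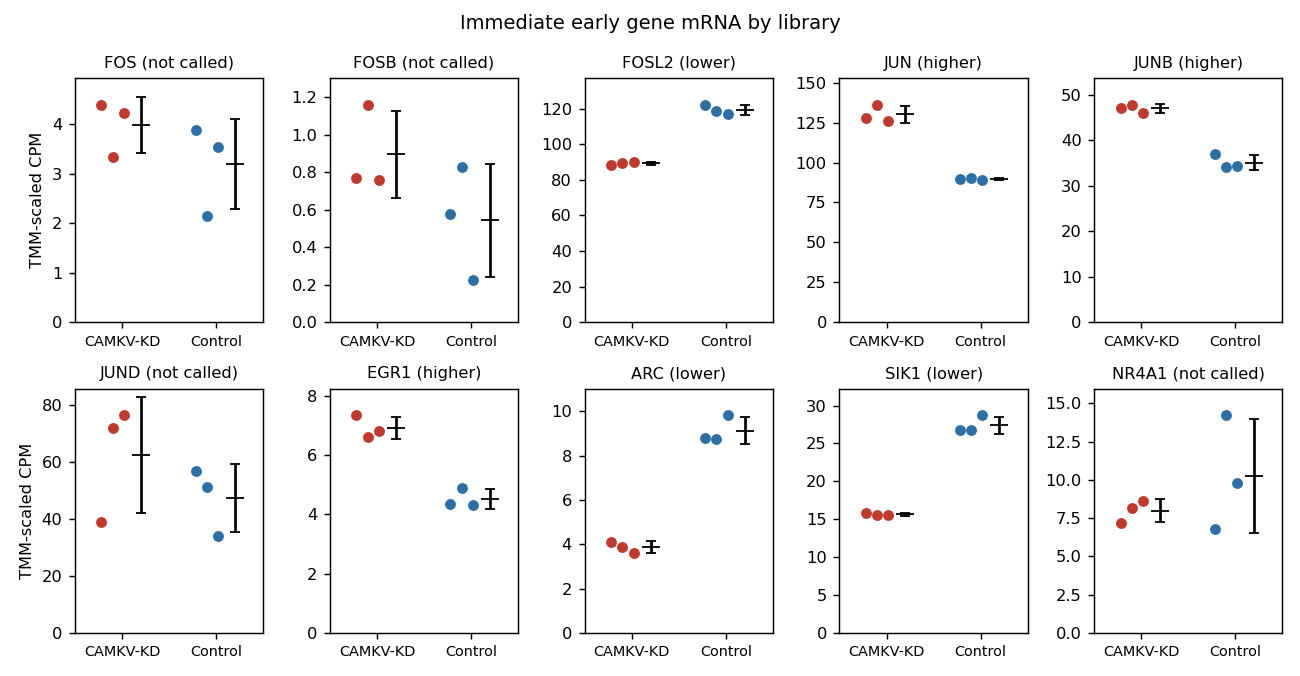
TMM-scaled CPM (y axis, linear from 0) of each of the 10 genes in the 3 CAMKV-KD (red) and 3 Control libraries (blue), with the mean and SD of each group in black beside the points. JUN, JUNB, EGR1, FOSL2, ARC and SIK1 show groups that do not overlap, while the points of FOS, FOSB, JUND and NR4A1 do.

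FOS, the first described member of its family, is a partner that binds DNA only when paired with a JUN protein. It was at 4.40, 3.34 and 4.23 CPM in the CAMKV-KD libraries, against 3.88, 2.16 and 3.54 CPM in the Control libraries. The groups overlap: CAMKV-KD 2 lies below Control 1 and Control 3. The log2 fold change was 0.32 ± 0.26 (SE; adjusted p = 0.395, edgeR), and fits on 5 libraries gave 0.11 (without Control 2) to 0.49 (without Control 1). The values rest on 109, 69 and 95 counts in CAMKV-KD and 94, 47 and 79 counts in Control. FOS (MSTRG.8032 in the table) lies on the plus strand of chromosome 14 from 75278774 to 75282230 (GRCh38, GENCODE 29, as for all positions below).

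FOSB, whose shorter splice form is the long-lived delta-FosB of neurons, was close to the floor. Its counts were 19, 24 and 17 in CAMKV-KD and 14, 18 and 5 in Control, or 0.768, 1.16 and 0.758 CPM against 0.578, 0.826 and 0.224 CPM. Control 2 lies above CAMKV-KD 1 and CAMKV-KD 3, so the groups overlap. The log2 fold change of 0.71 ± 0.48 (SE; adjusted p = 0.310, edgeR) ran from 0.35 without Control 3 to 1.13 without Control 2. FOSB (MSTRG.14344; chromosome 19, plus strand, 45467995 to 45475179) lies wholly inside the annotated span of ERCC1, a DNA repair gene on the opposite strand. Since no strand setting is stated, reads of ERCC1 within FOSB cannot be told apart from FOSB, and ERCC1 was itself higher in CAMKV-KD, at 62.5, 64.3 and 67.8 CPM against 47.9, 50.8 and 51.8 CPM in Control.

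FOSL2 (FRA-2), a FOS relative that lacks the strong activation domain of FOS and FOSB, was the FOS-family mRNA with the highest level. It was at 88.1, 89.3 and 90.0 CPM in the CAMKV-KD libraries, against 122.2, 118.3 and 116.9 CPM in the Control libraries. All CAMKV-KD libraries lie below all Control libraries, and each group spans only a few CPM. The means were 89.2 ± 0.974 CPM in CAMKV-KD and 119.2 ± 2.77 CPM in Control (SD, n = 3 each), so CAMKV-KD stood at 74.8% of Control. FOSL2 fell by 0.42 ± 0.034 on the log2 scale (SE; adjusted p = 0.000768, edgeR). FOSL2 (MSTRG.15025) lies on the plus strand of chromosome 2 from 28392448 to 28417312, where an annotated antisense RNA overlaps it by 2225 bases.

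JUN, the founding member of its family and a target of its own product through AP-1, rose. Its level was 128.1, 136.3 and 126.0 CPM in the CAMKV-KD libraries, against 89.5, 90.1 and 88.8 CPM in the Control libraries. The lowest CAMKV-KD library lies well above the highest Control library, and the Control values nearly coincide. The means were 130.2 ± 5.44 CPM and 89.5 ± 0.621 CPM (SD, n = 3 each) in CAMKV-KD and Control, so the level in CAMKV-KD was 145.5% of Control. The log2 fold change was 0.54 ± 0.042 (SE; adjusted p = 0.000650, edgeR). JUN (MSTRG.1010; chromosome 1, minus strand, 58780788 to 58784327) has 1 exon.

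JUNB, which in many settings opposes the growth-promoting action of JUN, rose as well. It was at 47.1, 47.9 and 46.1 CPM in the CAMKV-KD libraries, against 37.0, 34.0 and 34.3 CPM in the Control libraries, with no overlap. The means were 47.0 ± 0.903 CPM in CAMKV-KD and 35.1 ± 1.63 CPM in Control (SD, n = 3 each), and the log2 fold change was 0.42 ± 0.055 (SE; adjusted p = 0.00333, edgeR). JUNB (MSTRG.13677; chromosome 19, plus strand, 12791496 to 12793315) also has 1 exon and lies wholly inside the annotated span of HOOK2, an adaptor of the dynein motor on the opposite strand. HOOK2 was at 4.08, 8.96 and 8.56 CPM in CAMKV-KD, against 10.1, 7.48 and 8.12 CPM in Control, and was not called. Its level is below that of JUNB in every library. With no strand setting stated, reads of HOOK2 within JUNB cannot be told apart from JUNB, so that level does not bound their share.

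JUND, the JUN relative that is usually expressed at a steady level in resting cells, was scattered widely between libraries. It was at 39.1, 72.1 and 76.4 CPM in the CAMKV-KD libraries, against 57.0, 51.2 and 34.1 CPM in the Control libraries. CAMKV-KD 1 lies below Control 1 and Control 2, while CAMKV-KD 2 and CAMKV-KD 3 are the highest of all 6. The log2 fold change of 0.40 ± 0.32 (SE; adjusted p = 0.389, edgeR) lay between 0.21 (without Control 3) and 0.65 (without CAMKV-KD 1). Its SD within groups was 0.46 on the log2(CPM + 0.5) scale, against a median of 0.095 over the 2885 tested genes of like level (a mean within 1.5-fold). JUND (MSTRG.13838; chromosome 19, minus strand, 18279760 to 18281622) has 1 exon.

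EGR1, which binds GC-rich sites and induces its own corepressor NAB2, was low in NGP cells and rose. It was at 7.35, 6.63 and 6.82 CPM in the CAMKV-KD libraries, against 4.34, 4.91 and 4.31 CPM in the Control libraries. The groups do not overlap, and the values rest on 182, 137 and 153 counts in CAMKV-KD and 105, 107 and 96 counts in Control. The means were 6.94 ± 0.373 CPM in CAMKV-KD and 4.52 ± 0.340 CPM in Control (SD, n = 3 each), and the log2 fold change was 0.62 ± 0.11 (SE; adjusted p = 0.00943, edgeR). EGR1 (MSTRG.22253) lies on the plus strand of chromosome 5 from 138465490 to 138469315. NAB2 was higher too, at 70.4, 63.5 and 74.3 CPM in CAMKV-KD, against 46.5, 49.7 and 51.4 CPM in Control (log2 fold change 0.50 ± 0.077, SE; adjusted p = 0.00572, edgeR).

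NR4A1 (NUR77), a nuclear receptor that takes part in stress and differentiation responses, did not pass. It was at 7.19, 8.18 and 8.60 CPM in the CAMKV-KD libraries, against 6.77, 14.2 and 9.78 CPM in the Control libraries. The scatter was in the Control group, where Control 1 is the lowest and Control 2 the highest of all 6 libraries. The log2 fold change of −0.36 ± 0.28 (SE; adjusted p = 0.381, edgeR) was −0.59 without Control 1 and −0.050 without Control 2. Its relatives NR4A2 and NR4A3, which are immediate early genes of the same family, were at 12.9 to 13.4 CPM in CAMKV-KD against 13.5 to 14.7 CPM in Control, and at 12.2 to 14.4 CPM against 14.5 to 17.8 CPM, and neither was called. NR4A1 (MSTRG.5920) lies on the plus strand of chromosome 12 from 52022832 to 52059507.

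ARC had the largest fold change of the 10, and it was lower. Its level was 4.12, 3.87 and 3.61 CPM in the CAMKV-KD libraries, against 8.80, 8.76 and 9.83 CPM in the Control libraries. Every CAMKV-KD library is below every Control library by a wide margin. The means were 3.87 ± 0.255 CPM in CAMKV-KD and 9.13 ± 0.603 CPM in Control (SD, n = 3 each), so 42.4% of the Control level remained. ARC fell by 1.24 ± 0.11 on the log2 scale (SE; adjusted p = 0.000969, edgeR), a size that 91.9% of all tested genes did not reach. The counts behind it were 102, 80 and 81 in CAMKV-KD and 213, 191 and 219 in Control. ARC (MSTRG.26460; chromosome 8, minus strand, 142611044 to 142614472) has 3 exons.

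SIK1, an AMPK-related kinase that is itself induced through CREB and holds CRTC coactivators in the cytoplasm, also fell. It was at 15.8, 15.5 and 15.6 CPM in the CAMKV-KD libraries, against 26.8, 26.8 and 28.7 CPM in the Control libraries. The CAMKV-KD values nearly coincide and lie far below all Control values. The means were 15.6 ± 0.183 CPM in CAMKV-KD and 27.4 ± 1.13 CPM in Control (SD, n = 3 each), or 57.0% of Control, and the gene fell by 0.81 ± 0.063 on the log2 scale (SE; adjusted p = 0.000674, edgeR). SIK1 (MSTRG.17786; chromosome 21, minus strand, 43414483 to 43427189) has a near-identical annotated copy, SIK1B, which has no entry among the deposited counts. Reads may be split between the copies, so the level of SIK1 is uncertain. Its relative SIK2 was at 37.5, 34.4 and 36.7 CPM in CAMKV-KD, against 31.4, 30.1 and 32.0 CPM in Control, a log2 fold change of 0.22 ± 0.061 (SE; adjusted p = 0.0421, edgeR) whose call was lost in 8 of 14 alternatives computed.

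**Figure D2:**
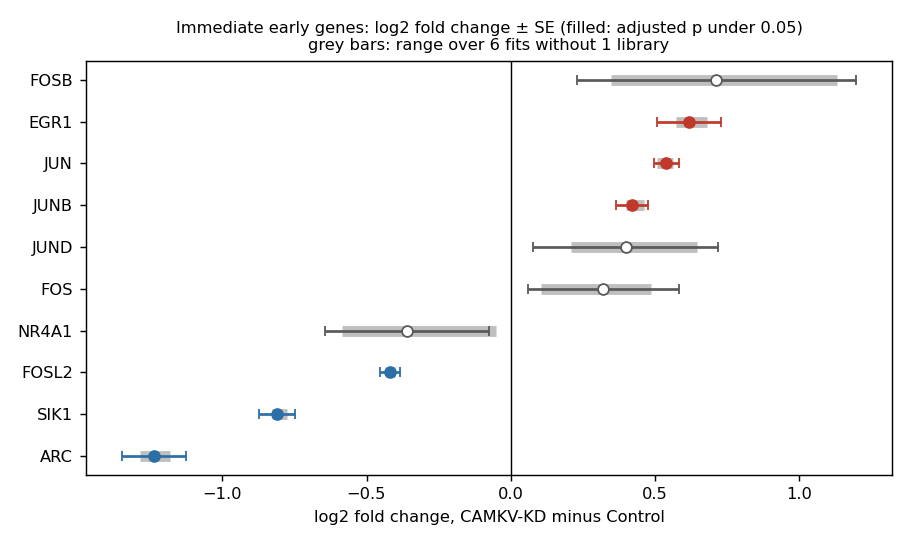
Log2 fold change (x axis, CAMKV-KD minus Control) of the 10 genes with its SE; filled points have an adjusted p under 0.05, and grey bars span the 6 fits that left out a library. From FOSB at 0.71 to ARC at −1.24, no grey bar crosses 0, but the bars of FOS, FOSB, JUND and NR4A1 are wide and their points are open.

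To compare levels between genes, counts were divided by exon length and scaled to the same total in each library. On this length-scaled level the JUN family and FOSL2 stood far above the rest. In CAMKV-KD the order ran JUN (146.6 ± 7.10), JUND (133.9 ± 43.9), JUNB (103.0 ± 2.57), FOSL2 (49.7 ± 0.673), SIK1 (11.8 ± 0.107), EGR1 (8.81 ± 0.436), ARC (5.16 ± 0.341), FOS (4.91 ± 0.674), NR4A1 (4.37 ± 0.402) and FOSB (0.644 ± 0.170; SD, n = 3 each). In Control it ran JUND (100.2 ± 24.4), JUN (99.6 ± 0.338), JUNB (76.0 ± 3.37), FOSL2 (65.6 ± 1.26), SIK1 (20.5 ± 1.04), ARC (12.04 ± 0.911), EGR1 (5.67 ± 0.392), NR4A1 (5.54 ± 2.0), FOS (3.89 ± 1.13) and FOSB (0.384 ± 0.212). JUND and its neighbours do not differ beyond the spread of JUND, nor does FOS from ARC or from NR4A1 in CAMKV-KD, nor NR4A1 from EGR1 or from FOS in Control. ARC stood above EGR1 in each Control library and below EGR1 in each CAMKV-KD library. The exon length of NR4A1, 7295 bases over all annotated exons against 2678 for its main transcript, lowers its length-scaled level.

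**Figure D3:**
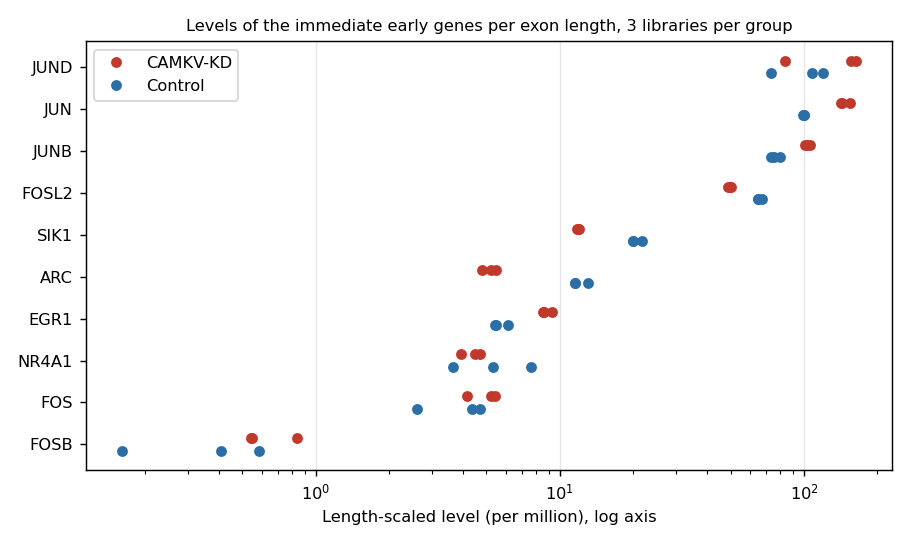
Length-scaled level (x axis, log scale) of the 10 genes in each CAMKV-KD (red, upper points of each row) and Control library (blue, lower points), 3 libraries per group. The JUN family and FOSL2 lie above 40 and the other genes below 30 in every library, and ARC and EGR1 change places between the groups.

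Within the FOS family, FOSL2 made up most of the length-scaled level: 87.8, 90.1 and 87.8% of the sum of FOS, FOSB, FOSL1 and FOSL2 in the CAMKV-KD libraries, against 92.5, 94.9 and 92.9% in the Control libraries. FOS made up 9.70, 7.45 and 9.12% in CAMKV-KD, against 6.49, 3.82 and 6.23% in Control, so the shares of both genes do not overlap between the groups. The summed level of the family was 55.7, 55.6 and 56.9 in CAMKV-KD, against 72.5, 68.2 and 70.1 in Control. FOSL2 alone averaged 49.7 in CAMKV-KD and 65.6 in Control, while the averages of FOS and FOSB were not lower in CAMKV-KD. In the JUN family JUN took 43.6, 37.2 and 34.9% in CAMKV-KD, against 33.2, 35.5 and 40.3% in Control, and these shares overlap because JUND, at 25.3 to 40.2% in CAMKV-KD and 29.4 to 40.1% in Control, varies between libraries. JUN relative to FOSL2, both measured with small error, stood at 2.94, 3.08 and 2.83 in CAMKV-KD, against 1.48, 1.54 and 1.54 in Control. These shares and ratios are given as descriptions with no test.

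The libraries did not order the 10 genes alike. Deviations from the mean of a library's own group on the log2(CPM + 0.5) scale were at most 0.11 in size for FOSL2, JUN, JUNB, EGR1, ARC and SIK1. FOS was low in CAMKV-KD 2 and Control 2 (−0.22 and −0.44), whereas FOSB was high in the same libraries (0.26 and 0.39) and low in Control 3 (−0.48). JUND was low in CAMKV-KD 1 and Control 3, and NR4A1 was low in Control 1 and high in Control 2 (−0.51 and 0.51). No library was high or low in all 4 of these genes at once. Against tested genes of like level, 3.37 to 25.4% had a smaller SD within groups than each of the 6 called genes, and 64.1 to 87.6% a smaller one than each of the 4 genes not called. The call itself depends on the spread, so this split is a description.

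**Figure D4:**
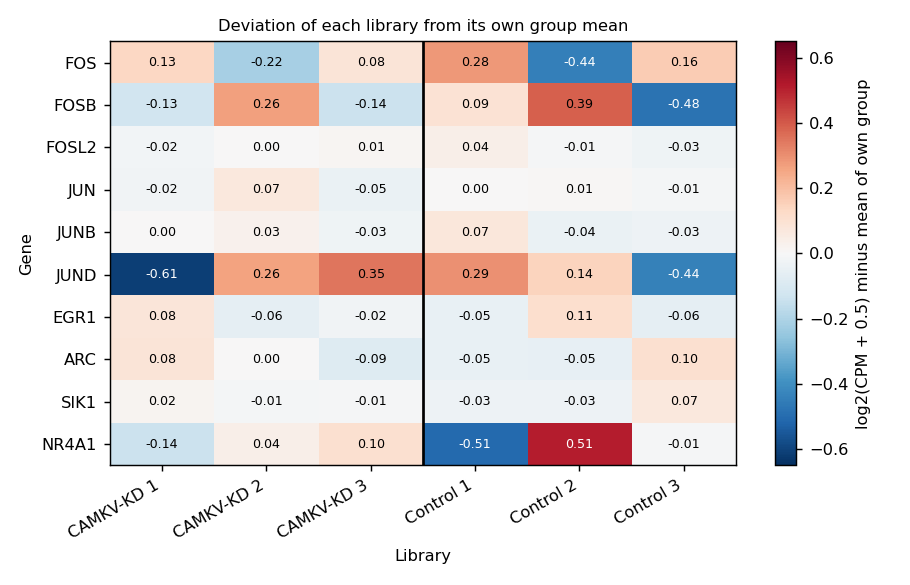
Deviation of each library (columns; 3 CAMKV-KD, then 3 Control) from the mean of its own group for each gene (rows), as log2(CPM + 0.5), with the value printed in each cell. Strong colours stand only in the rows of FOS, FOSB, JUND and NR4A1, and no library is low in all 4 of them.

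By the annotation, the 10 genes are short in exon number and rich in GC. Of them, 30% have 1 exon, against 2.73% of 12882 tested protein-coding genes, and 80% have at most 4, against 21.2%. The median GC content of their main transcripts was 57.7%, against 49.5%. The pentamer AUUUA, the core of the AU-rich elements that speed decay of many immediate early mRNAs, occurred in the 3′ UTR of 90%, against 69.3%, and ARC, the gene with the largest fold change, was the member without it. Per kilobase of 3′ UTR the median was close, at 1.66 copies in the members and 1.59 in the tested protein-coding genes. FOSL2 held 9 copies and FOS 5.

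Patterns most like those of FOS and EGR1 over the 6 libraries were sought among 12506 other tested genes with a mean of at least 1 CPM. Likeness was the Euclidean distance between log2(CPM + 0.5) profiles centred on their own means. For FOS the nearest were MC1R (0.166), DET1 (0.204) and AOC3 (0.218), against a median distance of 0.939. For EGR1 they were ZNF708 (0.0754), PHF19 (0.0914) and NPIPA2 (0.0934), against a median of 0.925. None of these 6 genes is in the immediate early lists used here.

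Among 35 other immediate early genes, 30 passed the filter, and they too moved both ways. Of these 30, 8 were higher and 8 lower (median 0.041; 53.3% called, against 36.3% of all tested genes). PLK2, a kinase induced by synaptic activity, was at 47.4, 47.5 and 46.8 CPM in CAMKV-KD, against 25.4, 27.7 and 25.5 CPM in Control, a log2 fold change of 0.85 ± 0.057 (SE). MCL1, an inhibitor of apoptosis, rose by 0.27, SRF, the factor that binds the CArG box, by 0.49 and IER2, a nuclear protein, by 0.41. KLF10, a zinc finger repressor induced by TGF-beta, had the smallest p among those that fell, at 105.3, 108.1 and 102.5 CPM in CAMKV-KD, against 195.1, 214.2 and 202.3 CPM in Control. GEM, a small GTPase that restrains calcium channels, fell by 1.37, IER5 by 0.71 and BTG2, an antiproliferative gene, by 0.59. Leaving out a library gave 5 to 7 genes higher and 6 to 8 lower, and MAFF and TRIB1, close to the threshold, lost their call in each of those 6 fits.

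KLF2, MYC, MAFF and TRIB1 were named after their values were seen. KLF2, a zinc finger factor, was at 1.62, 1.69 and 1.20 CPM in CAMKV-KD and between 0 and 0.330 CPM in Control. MYC, the relative of the MYCN gene that NGP cells express, was at 0.768, 1.99 and 0.713 CPM in CAMKV-KD and at most 0.269 CPM in Control. Both are low, and both lost their call in some of the fits without a library, KLF2 in 4 of 6 and MYC in 3 of 6.

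**Figure D5:**
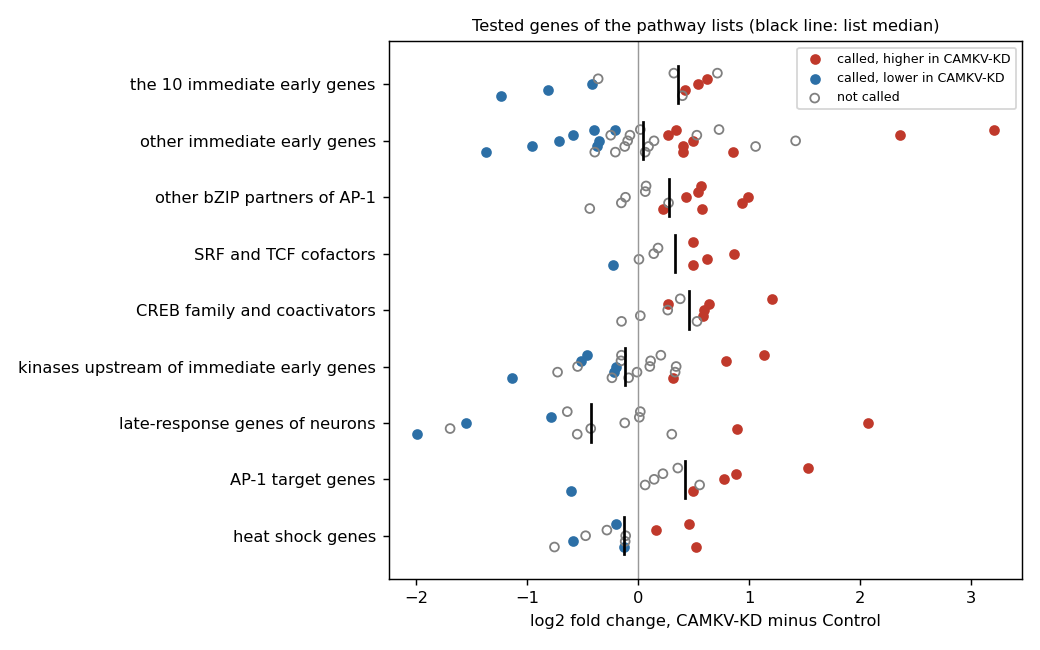
Log2 fold change (x axis, CAMKV-KD minus Control) of every tested gene of the 10 immediate early genes and of 8 related lists (rows); filled points were called, red higher and blue lower, open points were not called, and black lines are medians. Called genes stand on both sides of 0 for the immediate early genes, and on the higher side for all called bZIP partners and CREB family genes.

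The factors that act on these genes were counted in lists of their own. Over all tested genes the median was 0.0045, with 17.3% higher, 19.0% lower and 36.3% called. Of 8 tested SRF and ternary complex genes 4 were higher and 1 lower (median 0.34; 62.5% called): SRF, ELK4 (0.62), a ternary complex factor, MKL2 (0.86), an actin-regulated SRF coactivator, and NAB2 rose, and ELK1 fell by 0.23. The calls of MKL2 and ELK1 were each lost in 5 of 6 fits without a library. Of 10 CREB family genes and coactivators 5 were higher and none lower (median 0.45; 50% called, against 36.3% of all tested genes): EP300 and CREBBP, the paired histone acetyltransferases that CREB recruits, rose by 0.64 and 1.20, CRTC3, a coactivator held back by SIK kinases, by 0.60 and ATF1, a CREB relative, by 0.58. CREB1 itself was at 71.4, 140.7 and 95.8 CPM in CAMKV-KD, against 62.9, 93.0 and 57.3 CPM in Control, and was not called. Of 13 tested bZIP partners of AP-1, 7 were higher and none lower (median 0.27; 53.8% called, against 36.3% of all tested genes), and those with the smallest p were ATF4 (0.43), the stress-responsive factor, NFE2L1 (0.54), ATF5 (0.58) and NFE2L2 (0.22), the antioxidant factor.

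Of 20 upstream kinases, 3 were higher and 5 were lower (median −0.12), and the share called, 40%, was near the 36.3% of all tested genes. MAPK3, which encodes ERK1, was at 22.3, 20.1 and 19.3 CPM in CAMKV-KD, against 47.7, 42.4 and 45.4 CPM in Control, and fell by 1.14. MAP2K1, which encodes its activator MEK1, fell by 0.46, RPS6KA1, an ERK-activated kinase that phosphorylates SRF and CREB, by 0.51 and MAPK14, a p38 kinase, by 0.22. PRKACB, a catalytic subunit of protein kinase A, rose by 1.13, RPS6KA4, which encodes the histone H3 kinase MSK2, by 0.79 and ARAF by 0.31, the last with a call lost in 5 of 6 fits without a library. Of the MEF2 factors and class IIa histone deacetylases, 1 of 6 tested was higher, HDAC7 at 0.63, and none was lower (median −0.46; 16.7% called).

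Genes downstream were mixed. Of 13 tested late-response genes of neurons 2 were higher and 3 lower (median −0.43; 38.5% called, near the 36.3% of all tested genes): VGF, a neuropeptide precursor, and NPY rose by 2.07 and 0.89, while NRN1 (neuritin) fell by 1.99, BDNF, a neurotrophin, by 1.55 and DCLK1 by 0.79. BDNF was at 2.79, 4.75 and 3.52 CPM in CAMKV-KD, against 11.2, 11.5 and 9.60 CPM in Control. Of 10 tested AP-1 target genes 4 were higher and 1 lower (median 0.42; 50% called, against 36.3% of all tested genes): CCND1, which encodes cyclin D1, rose by 0.49, TIMP1, a protease inhibitor, by 0.77, PLAU by 0.88 and PLAUR by 1.53, and EZR (ezrin) fell by 0.60. The calls of PLAU and PLAUR were each lost in 5 of 6 fits without a library. MMP3, IL6 and CXCL8, AP-1 targets of inflamed tissue, had no count in any library.

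Among 8 factors that bind AU-rich elements 3 were higher and none lower (median 0.31; 37.5% called, near the 36.3% of all tested genes): HNRNPD rose by 0.26, ZFP36L1, which promotes decay, by 1.04 and ELAVL2 by 0.71, the last pair with calls lost in 4 of 6 fits without a library. ZFP36, itself an immediate early gene, was at 0.73 ± 0.24 (SE) and did not pass. Heat shock genes, which share sensitivity to cell handling with immediate early genes, had 3 of 11 higher and 3 lower (median −0.12). The share called was 54.5%, against 36.3% of all tested genes, of which 17.3% were higher and 19.0% lower. The 11 genes summed to 10279 to 10391 CPM in CAMKV-KD, against 10907 to 11202 CPM in Control. DNAJB1, HSPH1 and HSPA8 rose by 0.53, 0.46 and 0.16, and HSP90AA1, HSPB1 and HSPD1 fell by 0.20, 0.59 and 0.12. The stress-inducible HSPA1A was at 135.5, 138.9 and 87.5 CPM in CAMKV-KD, against 143.0, 141.8 and 155.0 CPM in Control, and was not called. The part of handling in the levels of the 10 genes was not tested.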

How the data were processed

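RNA sequencing of 6 NGP libraries, 3 CAMKV-KD and 3 Control, was analysed from the deposited table of whole-number counts per gene, with no normalization applied. Per the submitters' processing notes the authors used FastQC 0.11.2, HISAT2 2.1.0 and StringTie 1.3.5 with GRCh38.p13. For counting method, annotation and strand setting the sources used here give nothing. Of 126 entries that share a symbol, the one with the highest mean was kept, leaving 19805 genes. Counts were filtered with filterByExpr, scaled by TMM and compared with the quasi-likelihood test of edgeR 4.0.16 in R 4.3.3, with group as the only term. SE was derived from each log2 fold change and its F statistic. CPM values use TMM-scaled totals of the tested genes. The detection floors cover counting error only, while the SE also holds the spread between libraries. Alternatives were other scalings, filters, DESeq2 1.42.0, limma-voom (limma 3.58.1), a replicate block and leaving out each library. Positions and lengths came from GENCODE 29 (96.0% of symbols matched), promoters from RefSeq for 9 of 10 members. The procedure was checked on simulated counts. The members and lists were chosen with earlier results of these data known. Named from each list were up to 4 called genes per direction with the smallest p, and other genes, such as ERCC1, HOOK2 and the uncalled examples, were chosen after their values were seen. Some genes of the lists are counted but not reported here by name.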

Additional observations from a re-analysis of the deposited data

How the results depend on the processing

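Across 14 alternatives, 153 log2 fold changes of the 10 genes and CAMKV were recomputed, and 152 kept their direction and their side of the threshold. The exception was EGR1 with the replicate number as a block, where the value was 0.62 with an adjusted p of 0.0549 (between 0.000167 and 0.0549 over all alternatives). The block left 5 of the 10 genes called and 3330 genes in all, against 4855. Over all alternatives 3330 to 5698 genes were called, the highest count by DESeq2. Over all tested genes, same-numbered libraries did not deviate together (correlations of −0.058 to −0.0075). With 3 libraries per group these correlations cannot settle whether same-numbered libraries were prepared together, which the labels do not state. FOSB could not be fitted with a minimum mean of 1 CPM. FOSB rests on 5 to 24 counts per library, and depth and scatter between libraries were not separated.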
